A study of Mus musculus with 8 samples.

Results

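The receptor tyrosine kinase, Ras and ERK cascade was examined in the cingulate cortex of mice lacking the major vault protein through 43 genes chosen by function and listed by symbol. The list holds 8 receptors, 9 adaptors and proximal signalling proteins, 4 Ras exchange factors, 2 Ras proteins, 5 brakes on Ras, 6 genes of the Raf, KSR and MEK tier, and 9 kinases and substrates on the ERK side. The 43 symbols matched 43 of the 53379 genes in the count table, and all 43 had enough reads to enter the test, among 16914 genes. Poly(A) RNA was sequenced from 4 WT and 4 Mvp KO samples of the cingulate cortex, all labelled as receiving no treatment. The Mvp line is a gene trap, in which a β-Geo cassette with a polyadenylation site sits in the first intron of Mvp, on a C57BL/6 background, and the study placed the RNA work among its experiments on male Mvp-/- mice. The labels give no sex, age or litter and do not say that each sample is a separate animal, so p-values measure the spread between these samples.

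Receptor tyrosine kinases bind growth factors and neurotrophins outside the cell and phosphorylate themselves and docking proteins inside it. Adaptors then bring exchange factors to Ras, GTP-bound Ras recruits Raf kinases, Raf activates MEK, MEK activates ERK, and ERK activates further kinases and transcription factors. In cortical neurons the cascade is known for linking neurotrophins and synaptic activity to growth, plasticity and gene transcription, and the vault, the large ribonucleoprotein particle built from the major vault protein, has been proposed as a scaffold for it. Most steps are switched by phosphorylation and by GTP binding, which transcript counts do not measure.

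Mvp, the targeted gene, was read first as a check of the labels. Its normalised read count, scaled to the size of each library (CPM, counts per 1000000 counts), was 6.81, 7.12, 7.89 and 5.49 in WT, listed from replicate 1 to 4 as throughout, and 1.45, 1.44, 2.13 and 1.51 in Mvp KO. All 4 Mvp KO samples lay below all 4 WT samples, with a log2 fold change of -2.06 ± 0.19 (SE) and an adjusted p of 0.0162 (edgeR's quasi-likelihood test, Benjamini-Hochberg). Left out one at a time, no sample moved this log2 fold change beyond -2.22 to -1.99, but its adjusted p rose above 0.05 without WT replicates 1, 2 or 3 or Mvp KO replicates 1, 2 or 4, with a highest value of 0.147. Mapk3, which encodes ERK1 and lies on the same chromosome near Mvp, was at 203, 119, 144 and 145 CPM in WT and 147, 96.7, 154 and 158 CPM in Mvp KO. Its groups overlapped (log2 fold change -0.13).

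Total counts ran from 28456504 to 42854368 per sample, and the 43 genes together took 0.523 to 0.593% of them. WT replicate 4 stood apart: it had a score of 71.5 on the first principal component of all genes tested, against -20.4 to -2.78 in the other 7 samples. Its summed level of 10 immediate early genes, which mark recent neuronal activity, was 2481 CPM against 582 to 1525, with 9 of the 10 above the other 7 samples, and its summed level of 7 interneuron markers was 1782 CPM against 842 to 1031, with 4 of the 7 above the other samples and Vip below them. Its sum of 6 striatal projection neuron markers was 181 CPM against 90.7 to 115, with 4 above and 1 below the others, and its sum of 4 red blood cell markers was 14.8 CPM against 21.8 to 50.9, with all 4 below. Mvp KO replicates 1 and 2 had the highest sums of 6 oligodendrocyte markers, 5518 and 3771 CPM against 1291 to 2721 in the other 6 samples, and the lowest sums of 6 excitatory neuron markers, 4369 and 4559 CPM against 5192 to 5767. That sum was mostly Camk2a and Slc17a7. Single markers differed from it: Neurod6 was highest in Mvp KO replicate 2 at 147 CPM, Tbr1 lay inside the other samples' range in both, at 148 and 154 CPM, and Camk2a was lowest in WT replicate 4 at 2356 CPM. Excitatory neuron markers were present in every sample, as the cortical label implies. In bulk tissue fewer cells of a type and less RNA per cell cannot be told apart, and the part of these differences in the values below was not tested. Fits without those samples remove everything particular to them, so they cannot test that part.

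Promoter sequences were taken from RefSeq on GRCm38.p6, in windows from 250 bases before to 50 bases after an annotated start, and matched 37 of the 43 genes with 45 windows. Fgfr1, Ntrk3, Gab2, Shc3, Rasal1 and Rps6ka3 had no entry. The search covered 3 short motifs, on both strands: the cAMP response element TGACGTCA, the letters bound by CREB, the AP-1 site TGANTCA, and the ETS core CCGGAAG, the letters favoured by ELK1 and its relatives. No motif contains another. Only these exact letters were searched, so shorter or variant forms of a site were not counted. The cAMP response element was in the windows of 2 genes, Braf and Ptpn11, 4.44% of the member windows against 1.79% of all 32851 windows. The ETS core was in 6, those of Egfr, Frs2, Nf1, Ptpn11, Rasa1 and Shc1, 13.3% against 8.86%, and the AP-1 site was in 2, those of Ksr1 and Shc1, 4.44% against 7.81%. The 4 windows printed are the 2 with the cAMP response element, and those of Spred2 and Rps6ka5, the members that lay farthest above and below the other samples in WT replicate 4. Capitals mark a motif. The first is Braf, chr6:39725414-39725713, minus strand, with the element at -99 and -81 from the start.
Braf: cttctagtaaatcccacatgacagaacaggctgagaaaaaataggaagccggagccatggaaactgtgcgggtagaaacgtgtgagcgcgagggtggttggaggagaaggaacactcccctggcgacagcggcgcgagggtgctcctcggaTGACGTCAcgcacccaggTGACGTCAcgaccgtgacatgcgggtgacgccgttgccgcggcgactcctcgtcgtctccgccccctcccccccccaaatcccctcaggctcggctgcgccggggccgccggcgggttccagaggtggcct
The window of Ptpn11, chr5:121191348-121191647, minus strand, holds an ETS core at -103 and a cAMP response element at -67.
Ptpn11: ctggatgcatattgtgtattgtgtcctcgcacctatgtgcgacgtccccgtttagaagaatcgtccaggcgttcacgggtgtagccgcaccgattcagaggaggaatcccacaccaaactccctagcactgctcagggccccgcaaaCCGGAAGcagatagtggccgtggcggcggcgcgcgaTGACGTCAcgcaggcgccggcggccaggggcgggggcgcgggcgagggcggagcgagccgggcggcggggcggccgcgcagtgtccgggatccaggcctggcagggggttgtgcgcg
The windows of Spred2, chr11:19924192-19924491, plus strand, and Rps6ka5, chr12:100725071-100725370, minus strand, hold none of the 3 motifs.
Spred2: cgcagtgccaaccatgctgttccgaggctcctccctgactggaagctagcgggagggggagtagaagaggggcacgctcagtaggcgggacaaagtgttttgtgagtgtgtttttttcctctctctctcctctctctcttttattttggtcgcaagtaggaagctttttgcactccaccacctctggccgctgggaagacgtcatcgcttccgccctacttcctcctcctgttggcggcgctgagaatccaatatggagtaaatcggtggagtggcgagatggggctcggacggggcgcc
Rps6ka5: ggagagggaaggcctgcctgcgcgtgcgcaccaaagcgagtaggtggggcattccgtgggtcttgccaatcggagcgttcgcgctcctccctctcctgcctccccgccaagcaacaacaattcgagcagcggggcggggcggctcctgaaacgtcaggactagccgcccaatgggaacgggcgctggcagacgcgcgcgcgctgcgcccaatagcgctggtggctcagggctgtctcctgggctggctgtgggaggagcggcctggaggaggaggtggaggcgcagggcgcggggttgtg
A motif in a window is a match of letters only. The coefficient of variation over the 8 samples was 4.55% for Braf and 5.09% for Ptpn11.

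Whether loss of Mvp was accompanied by altered transcription of the cascade was asked gene by gene. No difference between Mvp KO and WT passed the test for any of the 43 genes. With edgeR's quasi-likelihood test, adjusted by Benjamini-Hochberg over all 16914 genes, 0 of 43 passed (0.00591% of all genes did), with a lowest adjusted p of 0.969, and 0 of 43 reached an unadjusted p under 0.05, against 1.56% of all genes. DESeq2's Wald test also passed 0 of 43 (0.0118% of all genes) and gave 0 at an unadjusted p under 0.05 (1.6%), and so did limma voom with sample quality weights (0.00591% and 3.28%). No gene had its 4 Mvp KO values all above or all below its 4 WT values, against 1.52% of all genes. The smallest unadjusted p values were 0.117 for Rps6ka3 and 0.129 for Spred2.

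The differences were small and their intervals narrow. The log2 fold change was positive for 14 genes and negative for 29, with a median of -0.021 against 0 over all genes tested, and ran from -0.38 for Spred2 to 0.35 for Gab1. The 95% interval lay within 1.5-fold in either direction for 40 of 43 genes (93% against 64.5% of all genes tested), within 1.25-fold for 23 (53.5% against 34.6%), and within 2-fold for all 43. The 3 genes whose interval reached past 1.5-fold were Gab1, a docking protein, Spred2, a brake on Ras, and Rps6ka5, a kinase that ERK activates. The median SE was 0.10 on the log2 scale against 0.14 over all genes, and the median coefficient of variation over the 8 samples was 9.74% against 13.8%. A 2-fold difference in either direction thus lay outside the interval of every member. The shares and medians over all genes were not matched for read count, and each of the 43 genes had at least 186 reads in every sample.

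**Figure D1:**
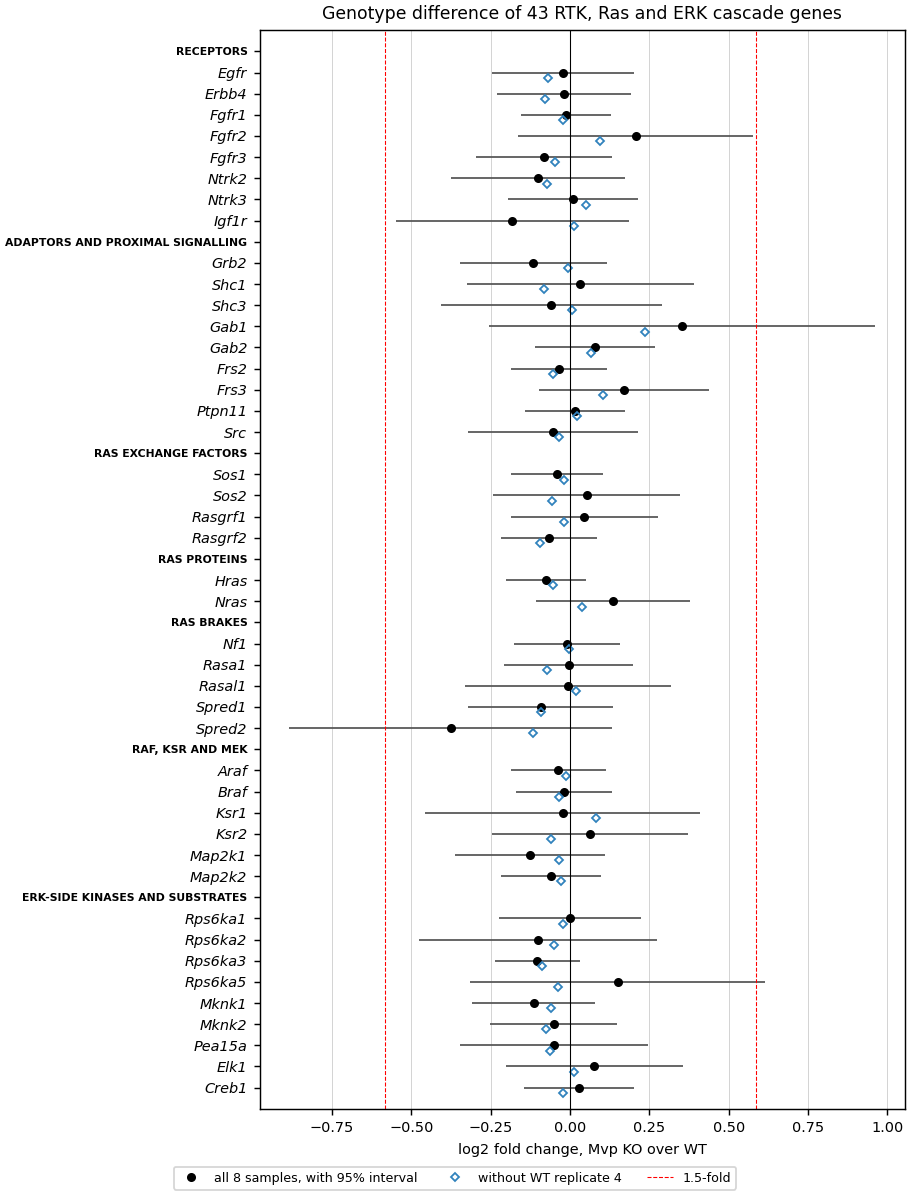
Log2 fold change of Mvp KO over WT (x axis) for the 43 genes, grouped by role. Black points with bars are the estimate and its 95% interval over all 8 samples, open diamonds the estimate without WT replicate 4, and red dashed lines 1.5-fold; every bar crosses 0, and only the bars of Gab1, Spred2 and Rps6ka5 cross a red line.

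Among the listed receptors, Ntrk2, which binds BDNF, had the highest level per length of annotated exon, 40.7 ± 5.04 CPM per kb (SD, n = 8). Its WT values were 836, 725, 838 and 855 CPM and its Mvp KO values 618, 683, 845 and 887 CPM. The lowest were Mvp KO replicates 1 and 2, the highest was Mvp KO replicate 4, and the log2 fold change was -0.10 (95% interval -0.38 to 0.17). Fgfr3, an FGF receptor well known from astrocytes, followed at 16.9 CPM per kb, and Erbb4, the neuregulin receptor known from interneurons, and Ntrk3, which binds neurotrophin 3, lay at 8.65 and 8.63. Igf1r, the receptor of insulin-like growth factor 1, was at 6.37, Fgfr1 at 5.73, Fgfr2 at 4.02, and Egfr, the epidermal growth factor receptor, was lowest at 1.71 CPM per kb. The neighbours Erbb4 and Ntrk3 did not differ beyond their SDs of 0.761 and 0.714, nor did Igf1r and Fgfr1, whose SDs were 1.29 and 0.238. Per kb of the longest coding transcript Ntrk2 and Fgfr3 were again the highest and Egfr the lowest, but Erbb4, at 8.88, came after Ntrk3, Fgfr1, Fgfr2 and Igf1r.

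**Figure D2:**
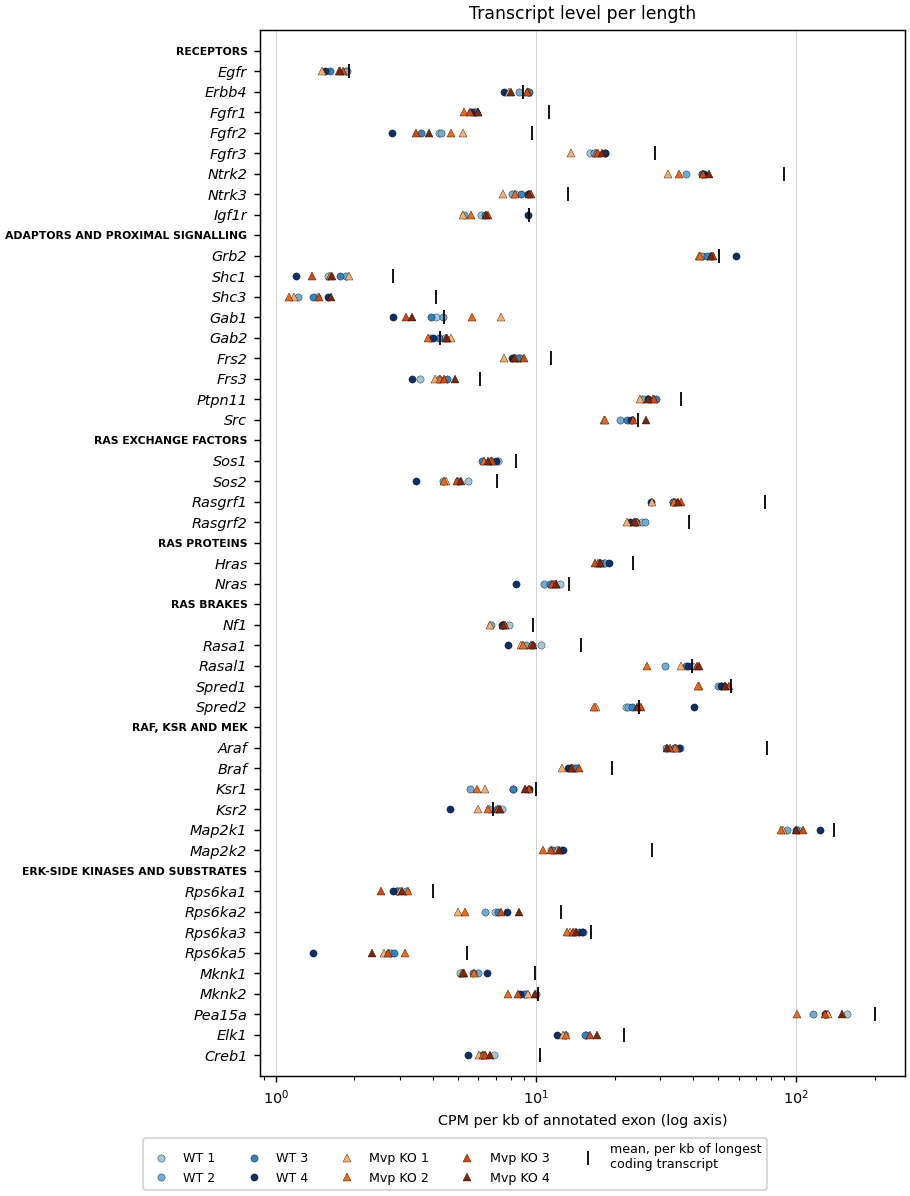
Level of each gene in CPM per kb of annotated exon (x axis, log scale), by role. Circles are the 4 WT and triangles the 4 Mvp KO samples, and the black tick is the mean per kb of the longest coding transcript; levels run from 1.38 for Shc3 to 130 for Pea15a.

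Fgfr2 was the receptor with the smallest unadjusted p, 0.241. It was at 43.5, 44.6, 37.2 and 28.8 CPM in WT and 53.8, 48.5, 35.5 and 40.1 CPM in Mvp KO. WT replicate 4 was the lowest and Mvp KO replicates 1 and 2 the highest. The log2 fold change of 0.21 ± 0.17 (SE) became 0.09 without WT replicate 4. It was -0.03 without Mvp KO replicates 1 and 2, a fit added after the marker values were seen. Leaving out the lowest WT or the highest Mvp KO values can only lower the estimate. Igf1r was at 103, 88.8, 107 and 156 CPM in WT and 87.9, 94.1, 110 and 108 CPM in Mvp KO. WT replicate 4 was 1.52 times the median of the other 7 samples, which spanned 87.9 to 110, and the log2 fold change moved from -0.18 to 0.01 without it. Erbb4 had means of 108 ± 10.7 and 106 ± 9.47 CPM (WT and Mvp KO, SD, n = 4), and was lowest in WT replicate 4, at 93.0 CPM. Fgfr1 varied least, between 52.2 and 59.1 CPM. Ntrk3, Fgfr3 and Egfr overlapped between the genotypes, with log2 fold changes of 0.01, -0.08 and -0.02. Fgfr3 shares 13.9% of its annotated exon bases with a gene on the opposite strand.

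Grb2, the adaptor that carries SOS to activated receptors, had the highest level among the listed adaptors, 46.7 ± 5.33 CPM per kb (SD, n = 8). It was at 137, 126, 132 and 171 CPM in WT and 123, 124, 140 and 137 CPM in Mvp KO. The highest was WT replicate 4, and the other 7 lay between 123 and 140. The log2 fold change of -0.12 became -0.01 without it. Ptpn11, the phosphatase SHP2, was at 26.9 CPM per kb and Src, a tyrosine kinase that sits beside the receptors, at 22.0. Ptpn11 had means of 201 ± 11.0 and 203 ± 11.0 CPM, and Src of 98.0 ± 4.47 and 94.4 ± 17.3 CPM (SD, n = 4). The spread of Src in Mvp KO came from replicates 1 and 2 at 79.9 and 80.1 CPM and replicates 3 and 4 at 103 and 115 CPM.

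The docking protein Gab1 (GRCm38 chr8:80764438-80880519) had the largest positive fold change of the 43. It was at 21.0, 22.2, 20 and 14.3 CPM in WT and 37.1, 28.8, 16.0 and 17.0 CPM in Mvp KO. Mvp KO replicates 1 and 2, the samples with the highest oligodendrocyte markers, held the highest values, and the other Mvp KO samples lay below 3 of the 4 WT samples. The log2 fold change was 0.35 ± 0.27 (SE, unadjusted p = 0.224, edgeR's quasi-likelihood test, adjusted p = 0.969). It was -0.23 without Mvp KO replicates 1 and 2, a fit added after the marker values were seen. Leaving out the highest Mvp KO values can only lower the estimate, and the cause of the high values was not tested. Its relative Gab2 did not share this pattern, with values from 23.6 to 28.9 CPM.

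Frs3, an FGF receptor substrate, had the smallest unadjusted p of the adaptors, 0.185. It was at 11.2, 13.2, 14.2 and 10.4 CPM in WT and 12.8, 13.4, 13.8 and 15.2 CPM in Mvp KO. WT replicates 1 and 4 lay below the rest and the groups overlapped at a log2 fold change of 0.17 (95% interval -0.10 to 0.44). It shares 16.3% of its exon bases with Frs3os on the opposite strand, the largest such share in the list. Frs2, its relative, was at 65.8 to 78.2 CPM. Of the SHC adaptors, which link receptors to Grb2, Shc1 (1.62 CPM per kb) and Shc3 (1.38) had the lowest levels in the role, and their log2 fold changes were 0.03 and -0.06. Shc3 was the least abundant of all 43 genes per length of annotated exon, with 186 to 255 reads per sample, whereas per kb of the longest coding transcript Egfr was lowest, at 1.90.

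Of the listed exchange factors that load Ras with GTP, the 2 calcium-responsive ones known from neurons were the more abundant. Rasgrf1 was at 32.7 ± 3.19 and Rasgrf2 at 24.2 ± 1.25 CPM per kb (SD, n = 8), above Sos1 at 6.67 and Sos2 at 4.67. Rasgrp1, a Ras regulator outside the list, was higher, at 130 CPM per kb. Rasgrf1 was at 379, 371, 371 and 305 CPM in WT and 309, 376, 398 and 388 CPM in Mvp KO. One sample of each genotype, WT replicate 4 and Mvp KO replicate 1, lay below a range of 371 to 398 CPM in the other 6. Rasgrf2, with the smallest unadjusted p of the role, 0.352, was at 236, 241, 224 and 212 CPM in WT and 206, 225, 220 and 222 CPM in Mvp KO, and its log2 fold change was -0.07 (95% interval -0.22 to 0.09). Sos1, the exchange factor brought by Grb2, had means of 71.7 ± 4.36 and 69.7 ± 2.14 CPM, and Sos2 of 39.0 ± 7.34 and 40.5 ± 3.03 CPM (SD, n = 4). The larger WT spread of Sos2 came with WT replicate 4, at 29.5 CPM against 37.4 to 46.4 in the other 7.

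The Ras proteins of the list, Hras and Nras, are the GTP switches themselves. Hras, at 17.8 ± 0.665 CPM per kb (SD, n = 8), was the steadiest of the 43 genes, with a coefficient of variation of 3.73%. It was at 67.8, 68.6, 65.6 and 70.8 CPM in WT and 65.5, 64.6, 62.9 and 65.9 CPM in Mvp KO. Only WT replicate 3, at 65.6, lay within the Mvp KO range, and the log2 fold change was -0.08 ± 0.06 (SE, unadjusted p = 0.204), with a 95% interval from -0.20 to 0.05. Nras, at 11.2 CPM per kb, was at 57.2 to 65.8 CPM in 7 samples and at 44.5 in WT replicate 4. Its log2 fold change of 0.14 became 0.04 without that sample.

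The list holds 5 genes that restrain Ras, of which Nf1, Rasa1 and Rasal1 speed the hydrolysis of its GTP and Spred1 and Spred2 are membrane proteins that work with neurofibromin. All 5 had a negative log2 fold change, as did 8457 of the 16914 genes tested. It was -0.01 for Nf1, -0.004 for Rasa1 and -0.007 for Rasal1, and none of the 5 had an unadjusted p under 0.05 by edgeR's quasi-likelihood test. Spred1 was the most abundant at 49.7 ± 4.95 CPM per kb (SD, n = 8), followed by Rasal1 at 36.6, Spred2 at 23.9, Rasa1 at 9.23 and Nf1 at 7.32. Spred1 was at 348, 339, 358 and 347 CPM in WT and 287, 283, 373 and 362 CPM in Mvp KO. Replicates 1 and 2 of Mvp KO were lowest and replicates 3 and 4 highest of the 8, on either side of a WT range of 339 to 358, and the log2 fold change was -0.09 (95% interval -0.32 to 0.14).

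Spred2 (GRCm38 chr11:19924375-20024026) had the largest negative fold change of the 43. It was at 102, 104, 108 and 186 CPM in WT and 78.2, 76.9, 117 and 113 CPM in Mvp KO. In WT replicate 4 it was 1.79 times the median of the other 7 samples, Mvp KO replicates 1 and 2 were the lowest, and Mvp KO replicates 3 and 4 lay above the other 3 WT samples. The log2 fold change of -0.38 ± 0.23 (SE, edgeR's quasi-likelihood test, adjusted p = 0.969) became -0.12 without WT replicate 4. Rasa1 and Nf1 had nearly equal means in the genotypes, 67.7 ± 7.91 and 67.5 ± 3.59 CPM for Rasa1 and 116 ± 8.01 and 116 ± 6.87 CPM for Nf1 (SD, n = 4). Rasal1 ranged from 94.0 CPM in Mvp KO replicate 2 to 149 in Mvp KO replicate 4, which spans the WT range of 111 to 140.

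Raf kinases phosphorylate MEK, and KSR proteins hold the kinases together. In this tier Map2k1, which encodes MEK1, had both the highest level, 99.7 ± 11.5 CPM per kb (SD, n = 8), and the smallest unadjusted p, 0.26. It was at 345, 313, 337 and 417 CPM in WT and 300, 295, 361 and 338 CPM in Mvp KO. Again WT replicate 4 was highest and Mvp KO replicates 1 and 2 lowest, and the log2 fold change moved from -0.13 (95% interval -0.36 to 0.11) to -0.03 without WT replicate 4. Map2k2, which encodes MEK2, was at 11.8 CPM per kb and 60.2 to 72.0 CPM. Araf was the more abundant Raf at 33.7 CPM per kb against 13.7 for Braf, and both were steady: Araf had means of 223 ± 12.4 and 218 ± 8.22 CPM and Braf of 191 ± 6.26 and 189 ± 11.5 CPM (SD, n = 4).

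The scaffolds Ksr1 and Ksr2 were at 7.75 and 6.57 CPM per kb. Ksr2 was at 100, 89.7, 96.2 and 63.2 CPM in WT and 81.1, 88.7, 96.9 and 98.3 CPM in Mvp KO. WT replicate 4 lay below all others, at 0.657 of their median. Ksr1 was at 66.7 CPM in WT replicate 4, the highest of the 8, and at 39.5 CPM in WT replicate 2, the lowest, and its log2 fold change was -0.02 (95% interval -0.46 to 0.41).

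On the ERK side, Pea15a, a small protein that binds ERK and keeps it in the cytoplasm, had the highest level of all 43 genes, 130 ± 17.5 CPM per kb (SD, n = 8). It was at 603, 447, 502 and 497 CPM in WT and 512, 388, 499 and 578 CPM in Mvp KO, with replicate 1 of WT highest and replicate 2 of Mvp KO lowest. The groups overlapped at a log2 fold change of -0.05 (95% interval -0.35 to 0.25). Elk1, an ETS factor that ERK phosphorylates, was at 14.3 CPM per kb and Creb1, a factor phosphorylated by the kinases below ERK, at 6.25. Their log2 fold changes were 0.08 and 0.03.

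Rps6ka3, which encodes the ribosomal S6 kinase RSK2, had the smallest unadjusted p of all 43 genes, 0.117. It was at 116, 126, 122 and 125 CPM in WT and 112, 109, 115 and 118 CPM in Mvp KO. Only WT replicate 1 at 116 and Mvp KO replicate 4 at 118 overlapped, and the log2 fold change was -0.10 ± 0.06 (SE), with a 95% interval from -0.24 to 0.03. Without WT replicate 1 or without Mvp KO replicate 4 its groups no longer overlapped, which 4.17% and 3.4% of all genes also showed without those samples. Rps6ka2, which encodes RSK3, was at 49.8 and 52.9 CPM in Mvp KO replicates 1 and 2, and at 63.4 to 86.0 in the other 6 samples. Rps6ka1, which encodes RSK1, was at 10.8 to 13.7 CPM, with a log2 fold change of -0.001.

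Rps6ka5 (GRCm38 chr12:100548439-100726983), which encodes MSK1, a nuclear kinase that phosphorylates CREB and histone H3, was the member farthest below the others in one sample. It was at 32.5, 32.9, 33.8 and 16.6 CPM in WT and 31.1, 37.3, 32.1 and 28.0 CPM in Mvp KO. In WT replicate 4 it was at 0.51 of the median of the other 7 samples, while the other 3 WT samples lay between 32.5 and 33.8 CPM. The log2 fold change of 0.15 ± 0.21 (SE) became -0.04 without it. Mknk1 and Mknk2, the kinases of the translation factor eIF4E, had log2 fold changes of -0.12 and -0.05 and ranges of 23.0 to 29.0 and 30.2 to 38.8 CPM.

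The balance between related genes was compared within each sample, where the library scaling cancels, for 14 pairs. In 0 of the 14 did the genotypes separate. Levels of single genes separated for 1.52% of all genes tested, so 0 of 14 pairs says little about their balance. Measured per kb of annotated exon, Map2k1 exceeded Map2k2 by 7.35 to 9.66 times, Ntrk2 exceeded Ntrk3 by 4.25 to 5.24 times, and Braf was at 0.364 to 0.445 of Araf. The size of a ratio depends on the length used, though its comparison between samples does not. Per kb of the longest coding transcript, mean levels were 139 for Map2k1 and 27.8 for Map2k2, and 89.9 for Ntrk2 and 13.2 for Ntrk3. By that length Shc3, at 4.11, lay above Shc1, at 2.81. The ratio of Hras to Nras was 1.47 to 1.71 in 7 samples and 2.27 in WT replicate 4. In that sample Spred1 was 1.27 times Spred2, against 2.17 to 2.51 times in the other 7, Sos1 was 2.02 times Sos2, against 1.24 to 1.53, and Ksr2 was 0.496 of Ksr1, against 0.762 to 1.19. It also lay outside the other 7 samples for Fgfr1 over Fgfr2 (2.01 against 1.12 to 1.63), Shc3 over Shc1 (1.33 against 0.617 to 1.06), Rasgrf1 over Rasgrf2 (1.20 against 1.25 to 1.51) and Map2k1 over Map2k2 (9.66 against 7.35 to 9.35). For Frs2 over Frs3 WT replicate 4 was highest at 2.42, level with WT replicate 1 in the digits given. Gab1 was 1.56 and 1.48 times Gab2 in Mvp KO replicates 1 and 2 and 0.696 to 1.11 times Gab2 in the others.

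**Figure D3:**
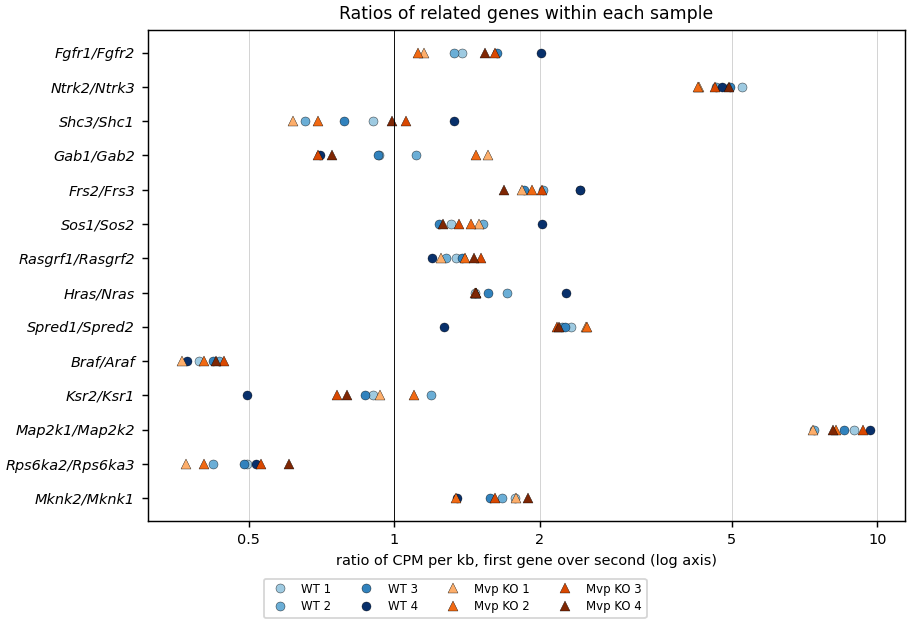
Ratio of the levels per kb of 2 related genes within each sample (x axis, log scale) for 14 pairs. Circles are WT and triangles Mvp KO samples, and the genotypes overlap in every pair. WT replicate 4 (dark blue) lies outside the others for Fgfr1/Fgfr2, Shc3/Shc1, Sos1/Sos2, Rasgrf1/Rasgrf2, Hras/Nras, Spred1/Spred2, Ksr2/Ksr1 and Map2k1/Map2k2. For Frs2/Frs3 it is highest, nearly level with WT replicate 1.

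In 6 members 1 sample was 1.5-fold or more away from the median of the remaining 7 (14% of members, against 36.3% of all genes tested, not matched for read count). In 5 of them the sample was WT replicate 4, where Spred2 and Igf1r were high and Rps6ka5, Ksr2 and Fgfr2 were low. The sixth was Gab1 in Mvp KO replicate 1, at 1.86 times the others' median. WT replicate 4 was the highest of the 8 for 9 members and the lowest for 13, which is 20.9% and 30.2% of members beside 29.2% and 32.5% of all genes tested. Without it 0 of 43 genes passed the adjusted threshold of edgeR's quasi-likelihood test (0.00583% of all genes) and 0 had an unadjusted p under 0.05 (1.34%). The largest absolute log2 fold change was 0.24, for Gab1, and the median coefficient of variation of members fell to 7.75% (10.2% over all genes).

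**Figure D4:**
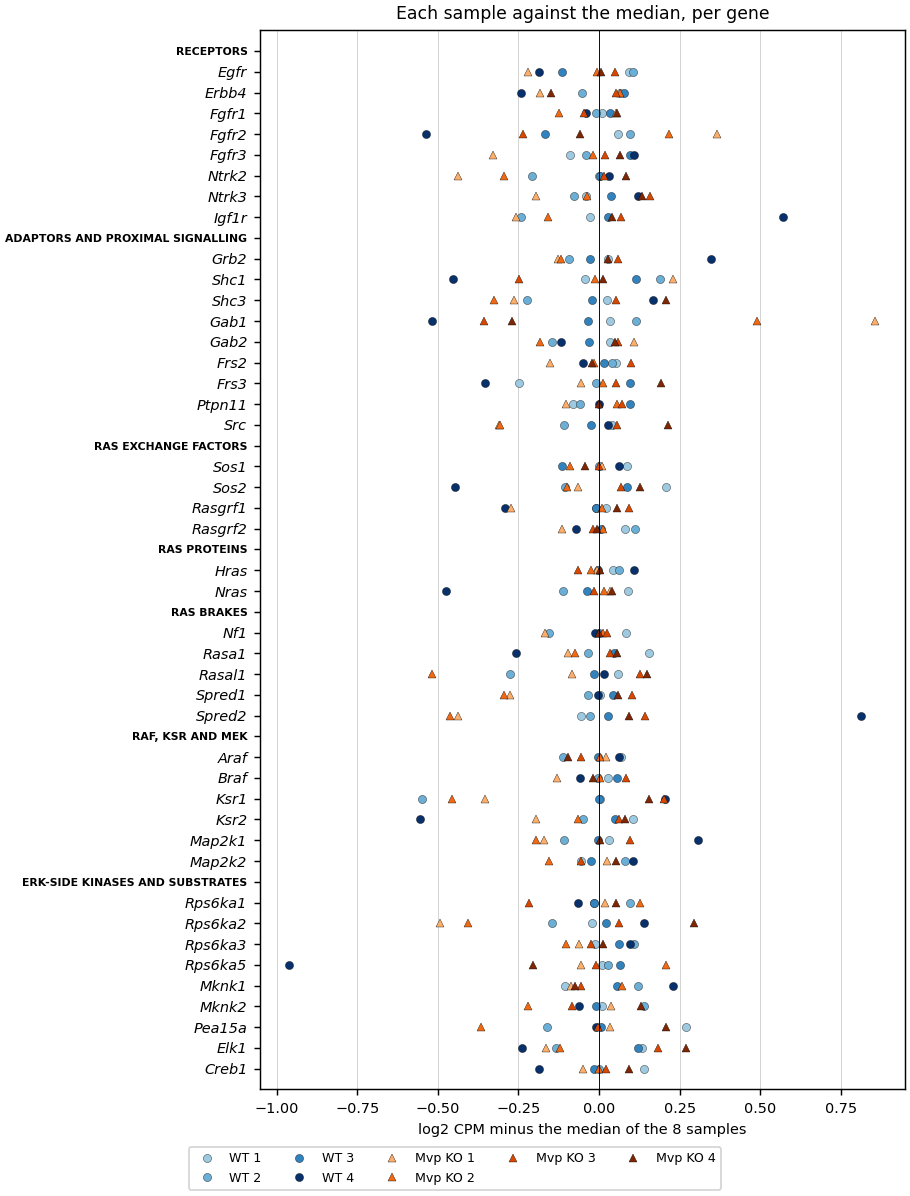
Each sample's log2 CPM minus the median of the 8 samples (x axis) for the 43 genes, by role. Circles are WT and triangles Mvp KO samples; WT replicate 4 (dark blue) lies farthest out for Spred2, Igf1r, Rps6ka5, Ksr2 and Fgfr2, and Mvp KO replicate 1 for Gab1.

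Mvp KO replicate 1 was the lowest of the 8 for 13 members and replicate 2 for 11, where 13.8% and 13.6% of all genes were lowest in them. For 9 members both lay below all other 6 samples: Ntrk2, Grb2, Shc3, Src, Spred1, Spred2, Map2k1, Rps6ka2 and Rps6ka3, where 7.25% of all genes did so. For 2 members, Fgfr2 and Gab1, both lay above all other 6, where 7.36% of all genes did so. These were the samples with the highest oligodendrocyte sums and the lowest excitatory neuron sums, whose part in these values was not tested. When both were left out, 7 members no longer overlapped, all higher in the remaining 2 Mvp KO samples (Ntrk3, Gab2, Src, Rasgrf1, Rasal1, Spred1 and Elk1), against 13.2% of all genes, and 0 of 43 had an unadjusted p under 0.05 (1.96% of all genes, edgeR's quasi-likelihood test).

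**Figure D5:**
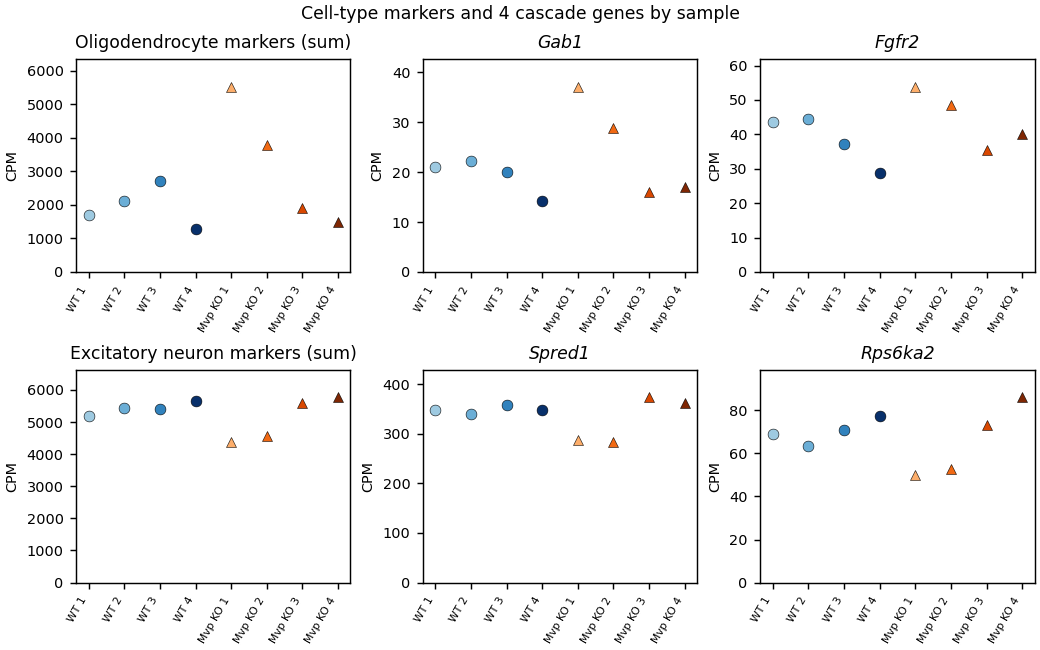
Summed CPM of 6 oligodendrocyte and 6 excitatory neuron markers and CPM of 4 cascade genes (y axes from 0) in each of the 8 samples (x axis). Mvp KO replicates 1 and 2 are the highest for the oligodendrocyte sum, Gab1 and Fgfr2, and the lowest for the excitatory neuron sum, Spred1 and Rps6ka2.

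The rest of the pathway was read from 99 further genes in 4 lists, of which 93 were tested, and none passed the adjusted threshold. Of 28 ligands 25 were tested, 1 was higher and 0 lower in Mvp KO at an unadjusted p under 0.05, where 0.698% of all genes were higher and 0.863% lower. Of 23 other receptor tyrosine kinases 20 were tested, with 0 higher and 1 lower. Among 32 other adaptors and Ras regulators and 16 other ERK cascade components the counts were 0 and 0. The others had too few reads to test.

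The ligand was Egf, epidermal growth factor, at 1.39, 1.29, 1.33 and 1.08 CPM in WT and 1.5, 1.80, 1.95 and 1.75 CPM in Mvp KO. All 4 Mvp KO values lay above all 4 WT values, with a log2 fold change of 0.46 (unadjusted p = 0.0256 and adjusted p = 0.969 by edgeR's quasi-likelihood test). Egf had only 34 to 74 reads per sample and shares 9.82% of its exon bases with genes on the opposite strand. Without WT replicate 4, its lowest sample, the log2 fold change was 0.395 (unadjusted p = 0.0508 by the same test). The receptor was Ret, the receptor of the GDNF family, at 6.02, 4.61, 4.29 and 17.0 CPM in WT and 3.07, 3.52, 4.05 and 4.42 CPM in Mvp KO, with WT replicate 4 far above the rest and an unadjusted p of 0.032 (edgeR's quasi-likelihood test, adjusted p = 0.969). Without WT replicate 4 the log2 fold change of Ret moved from -1.08 to -0.40, with an unadjusted p of 0.046 by the same test. It did not pass the adjusted threshold there, and Mvp KO replicate 4 lay above WT replicate 3.

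Ligands differed most in WT replicate 4. Bdnf, the ligand of the Ntrk2 product and a gene induced by neuronal activity, was at 599 CPM there and at 43.4 to 86.9 CPM in the other 7 samples, while Ntrk2 itself, at 855 CPM, lay within the range of the others. Hbegf, an EGF family ligand, was at 31.4 CPM there against 11.1 to 13.1, and its receptor gene Egfr was at 17.4 against 17.0 to 21.3. Ntf3, the ligand of the Ntrk3 product, was at 0.222 CPM against 1.14 to 3.10, and Fgf10 at 2.29 CPM against 8.61 to 12. The receptor gene Met was at 28.4 CPM there against 4.39 to 8.18, and the Ras relative Rras2 at 61.4 against 20.5 to 25. Csf1, Irs1, Dok4 and Ror2 were low in the same sample, at 8.73, 11.1, 8.29 and 0.254 CPM. Erbb3, a neuregulin receptor known from the oligodendrocyte lineage, followed the oligodendrocyte markers instead, at 17.7 and 13.2 CPM in Mvp KO replicates 1 and 2 and 6.13 to 10.3 CPM in the other 6 samples.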

How the data were processed

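RNA of 8 cingulate cortex samples with an RNA integrity number of at least 8 was made into stranded poly(A) libraries, read as single 50-base reads. The authors trimmed reads with cutadapt 1.10, removed rRNA and spike-in reads with Bowtie2 2.2.8, mapped to mm10 with STAR 2.5.3a and deposited raw counts per Ensembl gene from htseq-count 0.6.1p1 (Ensembl release 91). The strand and overlap settings of the counting are not given in the sources used here. How reads over bases shared with a gene on the opposite strand were assigned is therefore not known here. Such reads, and short reads shared by paralogs, can be lost from the counts.

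Symbols, exon lengths and coordinates came from GENCODE vM21 (GRCm38), which held 53274 of the 53379 identifiers. Genes passing filterByExpr (edgeR 4.0.16, R 4.3.3) were fitted with TMM scaling and the robust quasi-likelihood test on the 2 genotypes, with no covariate, and p-values were adjusted over all 16914 genes by Benjamini-Hochberg. Levels are TMM-scaled counts per 1000000 counts (CPM), and CPM per kb where genes are compared. Intervals on fold changes are 95% intervals of the fit. The tests were checked on simulated data. The alternatives were DESeq2 1.42.0 (size factors, Wald test), limma 3.58.1 voom with quality weights, other filters, the replicate number as a block, and leaving out each sample. Leaving out Mvp KO replicates 1 and 2 together was added after their marker values were seen.

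The members, roles, pathway lists and marker lists were chosen with earlier results of these data known. Values in every sample are given for members with an unadjusted p under 0.05 or no overlap of the genotypes (there were 0), for those where 1 sample was 1.5-fold or more away from the median of the remaining 7, and in each role for the highest level per length and the smallest unadjusted p. Other members named with sample values were chosen after these were seen. Pathway genes are named at an unadjusted p under 0.05 or where 1 sample was at least 2-fold off. Markers of oligodendrocyte precursors, astrocytes, microglia, endothelial cells, striatal projection neurons, choroid plexus and red blood cells were read as well. Their summed levels in WT and Mvp KO were 80.0 to 105 and 79.2 to 104, 4725 to 5015 and 4091 to 4912, 260 to 302 and 257 to 273, 189 to 249 and 177 to 213, 90.7 to 181 and 100 to 115, 4.73 to 7.93 and 4.18 to 8.63, and 14.8 to 50.9 and 21.8 to 47.5 CPM, in that order. WT replicate 4 gave the highest striatal and the lowest red blood cell sum.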

Additional observations from a re-analysis of the deposited data

Results flagged for a closer look

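Within each genotype, the highest and lowest of the 4 samples of every member, of Mvp and of the total count were compared with the gap to their nearest neighbour. Of the 90 groups of 4 examined 8 held a sample whose gap, as a share of the group's range, was over Dixon's 95% critical value, where chance gives about 4.5. In WT replicate 4, Spred2 was at 186 CPM against 102 to 108 in the other WT samples, Rasgrf1 at 305 against 371 to 379, and Rps6ka5 at 16.6 against 32.5 to 33.8. In WT replicate 2, Ntrk2 was at 725 CPM against 836 to 855, and the total count was 42854368 against 33408202 to 34760784. Nf1 was at 105 CPM in Mvp KO replicate 1 against 118 to 120 in the other Mvp KO samples. Mknk1 was at 26.0 CPM in Mvp KO replicate 2 against 23.3 to 23.8. Mvp was at 2.13 CPM in Mvp KO replicate 3 against 1.44 to 1.51. No cause of these gaps was tested.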

How the results depend on the processing

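All 43 genes stayed short of the adjusted threshold in every fit, and 0 reached an unadjusted p under 0.05 in every fit except that with the replicate block. Of 788 alternative values 703 did not change direction or cross the threshold. The sign of some member fold changes turned, that of Gab1 among them, and the cause was not tested. With limma voom and sample quality weights, where WT replicate 4 had a weight of 0.163, the log2 fold changes that turned were Egfr 0.013, Igf1r 0.022, Grb2 0.017, Shc1 -0.18, Shc3 0.049, Gab1 -0.056, Src 0.027, Sos1 0.019, Sos2 -0.013, Nf1 0.016, Rasal1 0.075, Ksr1 0.15, Ksr2 -0.0073, Map2k1 0.0066, Rps6ka2 0.0065, Rps6ka5 -0.047. Without a filter on low counts Rps6ka1 was at 0.0034. Without Mvp KO replicates 1 and 2 together, which leaves 2 Mvp KO samples, Fgfr2 was at -0.028, Gab1 at -0.23 and Mvp at -1.90 (adjusted p = 0.982 by edgeR's quasi-likelihood test), and 7 members did not overlap (13.2% of all genes). Leaving out 1 sample at a time turned the sign of 25 members, with ranges for Egfr (-0.070 to 0.037), Erbb4 (-0.080 to 0.025), Ntrk3 (-0.039 to 0.075), Ptpn11 (-0.0087 to 0.053), Nf1 (-0.055 to 0.034), Rasa1 (-0.073 to 0.055), Rasal1 (-0.087 to 0.11), Pea15a (-0.14 to 0.045), Rps6ka1 (-0.049 to 0.063), Igf1r (-0.29 to 0.013), Shc1 (-0.081 to 0.11), Shc3 (-0.17 to 0.013), Sos2 (-0.056 to 0.15), Rasgrf1 (-0.020 to 0.12), Ksr1 (-0.16 to 0.082), Ksr2 (-0.061 to 0.14), Rps6ka5 (-0.038 to 0.23), Creb1 (-0.023 to 0.081), Frs2 (-0.078 to 0.0080), Src (-0.16 to 0.019), Braf (-0.054 to 0.020), Rps6ka2 (-0.26 to 0.011), Fgfr1 (-0.039 to 0.019), Mknk2 (-0.11 to 0.0035), Elk1 (-0.0045 to 0.14). Those fits gave Mvp -2.22 to -1.99 and 0 to 2 members without overlap (2.8 to 4.17% of all genes): Rps6ka3 and Nras without WT replicate 1, Hras without WT replicate 3, Gab2 without Mvp KO replicate 2, and Hras and Rps6ka3 without Mvp KO replicate 4.

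Samples of the 2 genotypes share replicate numbers, and their deviations from the group means correlated at 0.0548, 0.287, -0.0067 and 0.0507, so the numbers were not taken as pairs. With the replicate number as a block, 1 member, Spred2, reached an unadjusted p under 0.05 (1.94% of all genes), Rasa1 was at 0.0011 and Mvp at -2.07 with an adjusted p of 0.085 by edgeR's quasi-likelihood test.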
